A study of Gallus gallus with 6 samples.

Results

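The genes described here are COX1, COX2 and COX3, subunits of cytochrome c oxidase, and ATP8 and ATP6, subunits of ATP synthase, all encoded by the mitochondrial DNA of the chicken. They were taken from a table of 24356 annotated genes as the 5 rows of the mitochondrial chromosome that start at positions 6645, 8331, 9085, 9240 and 9923, and all 5 passed the filter on low counts. The table gives IDs and no symbols, so the names rest on the standard gene order of the chicken mitochondrial genome. RefSeq's genes of these names in the assembly GRCg7b follow each other in the same order. Their lengths are the same for COX2, ATP8, ATP6 and COX3, and for COX1 1551 bases against 1548 in the table.

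Cytochrome c oxidase, or complex IV, is the last enzyme of the respiratory chain: it passes electrons from cytochrome c to oxygen and pumps protons out of the matrix. ATP synthase lets protons flow back and makes ATP. Most subunits of both enzymes are encoded in the nucleus, and the 5 genes here supply the core of complex IV and part of the membrane sector of ATP synthase. Vertebrate mitochondrial DNA is transcribed into long precursors that are cut largely at the tRNAs between genes, and the mRNAs are then polyadenylated, so that poly(A) selection captures them.

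The study sequenced poly(A) RNA of single dorsal neural folds, the part of the neural tube that gives rise to the neural crest, from Leghorn White chicken embryos. Each embryo was treated on one side with a TGFB1 morpholino and on the other with the GTBlue-Control morpholino, at 1 mM each, was grown to Hamburger-Hamilton stage 9, and gave a library from the fold of each side. Morpholinos are antisense oligonucleotides used to stop an RNA from being translated or spliced, and TGFB1 is a secreted ligand that signals through SMAD2 and SMAD3. The 6 libraries make 3 pairs of sides, with 3 control and 3 TGFB1 morpholino libraries, whose labels read wild type and TGFB1 knockdown. The pairs follow the numbers in the library titles, and that a pair shares an embryo is inferred from them. The knockdown and the identity of the tissue were not checked on marker genes here, because the IDs could not be matched to symbols.

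Library totals ran from 5350165 to 12256492 counted reads. The TGFB1 morpholino library of pair 1 stood apart from the others: 4.56% of its counts fell on 2 rows as long as the mitochondrial rRNAs, against 0.148% to 0.255% in the other 5 libraries. Every share below is therefore also given over the counts outside the mitochondrial chromosome. In bulk RNA, more mitochondrial RNA per cell and more cells that are rich in it cannot be told apart.

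The 5 genes lie on the plus strand within 4062 bases. In galGal6, COX1 (ENSGALG00000032142.1) is at chrM:6645-8192, COX2 (ENSGALG00000032456.1) at chrM:8331-9014, ATP8 (ENSGALG00000032465.1) at chrM:9085-9249, ATP6 (ENSGALG00000041091.1) at chrM:9240-9923 and COX3 (ENSGALG00000035334.1) at chrM:9923-10706. Each is a single exon. ATP8 and ATP6 share 10 bases, ATP6 and COX3 share 1, and the last 69 bases of COX1 lie opposite a row of 135 bases on the minus strand. That minus-strand row held 139 to 461 reads per library, or 0.187% to 0.456% of the COX1 count. Neither the strand setting of the counting nor its treatment of reads over 2 genes is given in the sources used here, so the counts of the genes that share bases are uncertain to that extent. ATP8, with 165 bases of which 155 are its own, is the gene most exposed to this. A read can reach beyond the shared bases, so their number does not bound the effect. The 2 tRNA-length rows between COX1 and ATP8 held 0 to 30 reads per library.

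**Figure D1:**
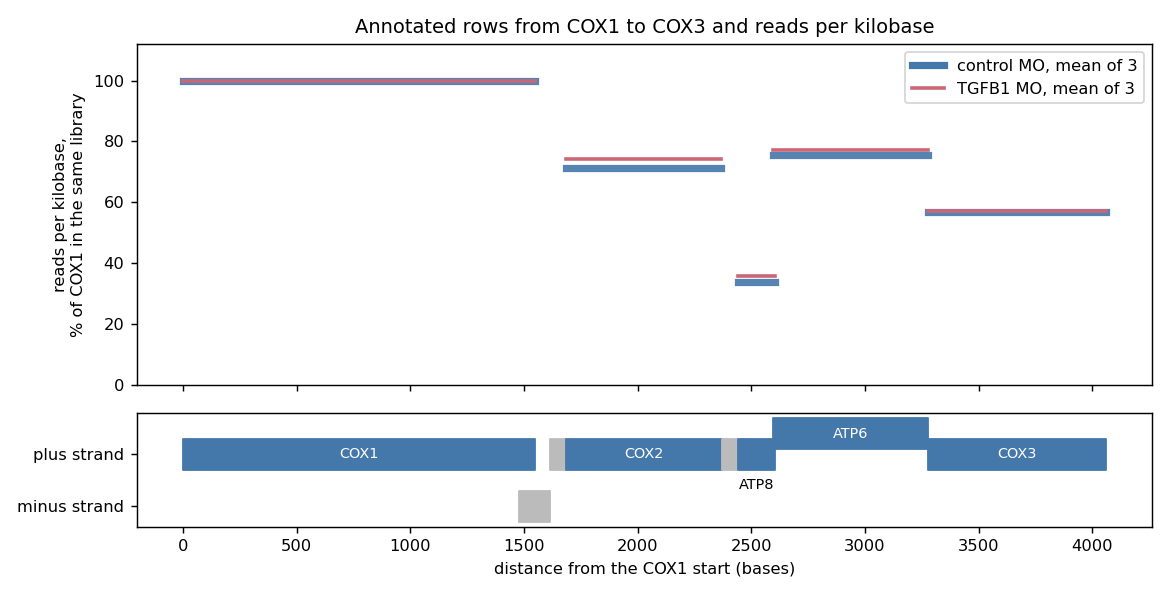
Annotated rows from COX1 to COX3 by distance from the COX1 start in bases (lower panel; ATP6 is drawn higher to show its overlaps, grey bars are a minus-strand row and tRNA-length rows), and reads per kilobase of each gene as a percentage of COX1 in the same library (upper panel, group means of 3 libraries). COX1 is highest and ATP8 lowest, and the group means of the 2 sides differ little for each gene.

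All 5 genes were among the most abundant rows of every library per length. In TPM, which scales reads per base of exon to the same total in each library, COX1, the catalytic subunit of complex IV that carries its haems, ranked between 1 and 3 of all rows. ATP6, the subunit that forms the proton path of ATP synthase together with the ring of c subunits, ranked 2 to 4. COX2, which takes up electrons from cytochrome c, ranked 2 to 5. COX3, the third core subunit of complex IV, ranked 4 to 7, and ATP8, a short membrane subunit of ATP synthase, 6 to 11.

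COX1 had 16300, 19302 and 14253 TPM in the controls of pairs 1, 2 and 3, and 29122, 24312 and 17232 TPM on the TGFB1 morpholino side. Over the 6 libraries its mean was 20087 ± 5597 TPM (SD, n = 6). The means of the others were 15071 ± 3342 TPM for ATP6, 14414 ± 3408 for COX2, 11335 ± 2836 for COX3 and 6895 ± 1600 for ATP8 (SD, n = 6). Of the 8 other mitochondrial rows with the length of a protein-coding gene, 1 lay above COX3 and below COX2, with a mean of 12086 TPM, and 2 more lay above ATP8. The 6 libraries come from 3 embryos, so these SDs mix the spread between embryos with that between sides.

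Within a library the order of the genes differed only in the places of ATP6 and COX2. COX1 exceeded ATP6 in 6 of 6 libraries, by 1.08-fold to 1.69-fold in reads per kilobase. ATP6 and COX2 were the closest neighbours: ATP6 was higher in 4 of 6 libraries, with ratios of 0.968 to 1.13, and higher in 3 of 3 embryos when both sides were averaged. COX2 exceeded COX3 in 6 of 6 libraries, by 1.16-fold to 1.35-fold, and COX3 exceeded ATP8 in 6 of 6, by 1.50-fold to 1.78-fold. Averaged over both sides of each embryo, the log2 difference between neighbours in this order was 0.40 ± 0.13 for COX1 over ATP6, 0.065 ± 0.018 for ATP6 over COX2, 0.35 ± 0.081 for COX2 over COX3 and 0.71 ± 0.088 for COX3 over ATP8 (SD, n = 3). An exact sign-flip test over the 3 embryos, two-sided, gave p = 0.25 for each, the smallest that 3 embryos allow.

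Relative to COX1 in the same library, COX2, ATP8, ATP6 and COX3 had SDs of 1.65, 0.543, 4.74 and 2.77 percentage points on the control side and 13.6, 6.86, 16.9 and 10.9 on the TGFB1 morpholino side (n = 3). COX2 stood at 72.1%, 69.3% and 72.2% of COX1 per kilobase in the controls of pairs 1, 2 and 3. On the TGFB1 morpholino side it stood at 58.8%, 80.1% and 84.0%. ATP8 stood at 33.7%, 33.6% and 34.6% in the controls and at 28.1%, 37.6% and 41.4% on the other side. The TGFB1 morpholino value was below all 3 controls in pair 1 and above all 3 in pairs 2 and 3, for both genes. ATP6 stood at 77.9%, 78.4% and 70.0% in the controls and at 59.2%, 79.7% and 92.8% on the other side. COX3 stood at 54.6%, 60.0% and 56.0% in the controls and at 44.9%, 64.9% and 62.2% on the other side. ATP6 and COX3 showed the same split between pair 1 and the other pairs. All these ratios share COX1 as their denominator, so the split is not a separate result for each gene.

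**Figure D2:**
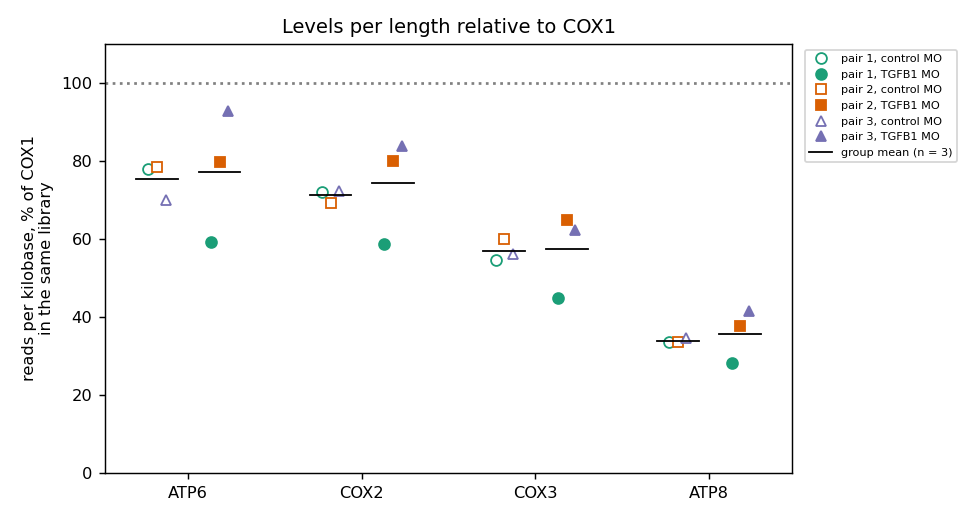
Reads per kilobase of ATP6, COX2, COX3 and ATP8 as a percentage of COX1 in the same library, with open symbols for the control side, filled symbols for the TGFB1 morpholino side, shapes and colours for the pairs, and lines for group means (n = 3). The filled circle of pair 1 is the lowest point for every gene, at 28.1% for ATP8 to 59.2% for ATP6.

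The side difference of these ratios had no common direction. The log2 ratio of COX2 to COX1 differed between the TGFB1 morpholino and the control side by -0.29, 0.21 and 0.22 in pairs 1, 2 and 3. That of ATP6 to COX1 differed by -0.40, 0.025 and 0.41. Over the 4 ratios to COX1 the mean difference lay between -0.0069 for COX3 and 0.053 for ATP8, and each was lower in 1 pair of 3. An exact two-sided sign-flip test over 3 pairs cannot go below p = 0.25, so it cannot call such a difference. With exact two-sided sign-flip tests over the 3 pairs, adjusted over the 4 ratios, every adjusted p was 1. The raw p of the ratio tests was 0.75 for ATP6 and 1 for the other 3 in the same exact tests. COX1 took 56.2% of the reads of the 5 genes in the TGFB1 morpholino library of pair 1 and 46.7% to 51.3% in the other 5 libraries. That is the library with the high rRNA-length counts, and their part in its COX1 level was not tested.

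ATP8 and ATP6 adjoin each other, and in mammals their overlapping reading frames are carried by a single mRNA. Per kilobase, ATP8 had 43.2%, 42.9% and 49.4% of the ATP6 level in the controls of pairs 1, 2 and 3, and 47.4%, 47.2% and 44.6% on the TGFB1 morpholino side. The values of the sides overlapped, with a mean of 45.8 ± 2.62% (SD, n = 6). How reads over both genes were counted is not known. These percentages therefore describe counted reads and need not be the ratio of the RNAs. Set against ATP6 in the same way, COX2 had a mean of 95.7 ± 6.05% and COX3 of 75.1 ± 5.60% (SD, n = 6). For all 3 ratios to ATP6 the TGFB1 morpholino side was higher in pairs 1 and 2 and lower in pair 3. In summed counts, the ATP synthase genes made up 23.8, 23.7 and 21.6 reads per 100 reads of the COX genes in the controls, and 19.6, 23.3 and 26.9 on the TGFB1 morpholino side. In these counts the controls lay between the extremes of the other side. For ATP8 and for COX2 against ATP6, the TGFB1 morpholino side lay between the extremes of the controls.

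The study set the sides against each other to find transcripts of the fold that differ when TGFB1 is targeted. All 5 genes were higher on the TGFB1 morpholino side in 3 of 3 pairs, by 1.49-fold to 1.55-fold on average, and 2 of them, COX2 and ATP8, passed the false discovery rate of 0.05. Among all 12736 genes tested, 7.15% were called higher and 8.81% lower, and 26.2% were higher in all 3 pairs. The median log2 fold change was 0.59 over the 5 genes and 0.0032 over all genes tested. The 5 genes are neighbours in the same transcription unit and share its RNA, so they are not 5 independent results.

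COX2 had 3839.8, 4312 and 3136 CPM (counts scaled to library size, with TMM factors) in the controls of pairs 1, 2 and 3. It had 5982, 6466 and 4908 CPM on the TGFB1 morpholino side. The groups did not overlap, and the 3 pairs gave much the same fold, 1.56, 1.50 and 1.57. The change from 3763 ± 592 to 5785 ± 797 CPM (SD, n = 3) passed the edgeR quasi-likelihood test, in which the pair is a block, with a log2 fold change of 0.62 (95% interval 0.21 to 1.04, SE 0.19, edgeR adjusted p = 0.0434). In this test each gene's spread is drawn towards that of other genes, with a median weight of 11.0 prior degrees of freedom. That is more than the 6 libraries provide, so its p values rest largely on other genes.

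ATP8 had 433, 505 and 362 CPM in the controls and 690, 733 and 584 CPM on the TGFB1 morpholino side. Its groups did not overlap either, and it was 1.59, 1.45 and 1.61-fold higher in pairs 1, 2 and 3. The group means were 433 ± 71.2 and 669 ± 76.5 CPM (SD, n = 3). The log2 fold change was 0.63 (95% interval 0.33 to 0.94, SE 0.14, edgeR adjusted p = 0.00922). It had the smallest p of the 5 although it had the fewest reads, 1951 to 7085 per library, where counting error is at most 2.26% of the count.

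ATP6 had 4152, 4876 and 3037 CPM in the controls and 6028, 6436 and 5426 CPM on the TGFB1 morpholino side. The groups did not overlap, but the fold was 1.45 in pair 1, 1.32 in pair 2 and 1.79 in pair 3. With means of 4022 ± 926 and 5963 ± 508 CPM (SD, n = 3), the log2 fold change of 0.59 (SE 0.20, 95% interval 0.16 to 1.02) did not pass after adjustment (edgeR adjusted p = 0.0615). Complete separation of the groups as seen for COX2, ATP8 and ATP6, 3 of the 5 genes, was found upwards for 14.3% of all genes tested.

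COX3 had 3336, 4277 and 2787 CPM in the controls and 5232, 6000.2 and 4167 CPM on the TGFB1 morpholino side. Here the groups overlapped, since the TGFB1 morpholino side of pair 3 lay below the control of pair 2, while within pairs the fold was 1.57, 1.40 and 1.49. Its log2 fold change was 0.57 (SE 0.19, 95% interval 0.16 to 0.98, edgeR adjusted p = 0.0569).

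COX1 had 12057, 14084 and 9825 CPM in the controls and 23033, 18266 and 13232 CPM on the TGFB1 morpholino side. The groups overlapped, and pair 1 differed most from the rest, with a fold of 1.91 against 1.30 in pair 2 and 1.35 in pair 3. The mean went from 11989 ± 2130 to 18177 ± 4901 CPM (SD, n = 3), with a log2 fold change of 0.58 (SE 0.24, 95% interval 0.063 to 1.09, edgeR adjusted p = 0.117). Without pair 1, which holds the library with the high rRNA-length counts, it was 0.40 (edgeR adjusted p = 0.0271). That fit took the spread almost wholly from other genes, so this p does not measure the spread of COX1 between embryos.

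**Figure D3:**
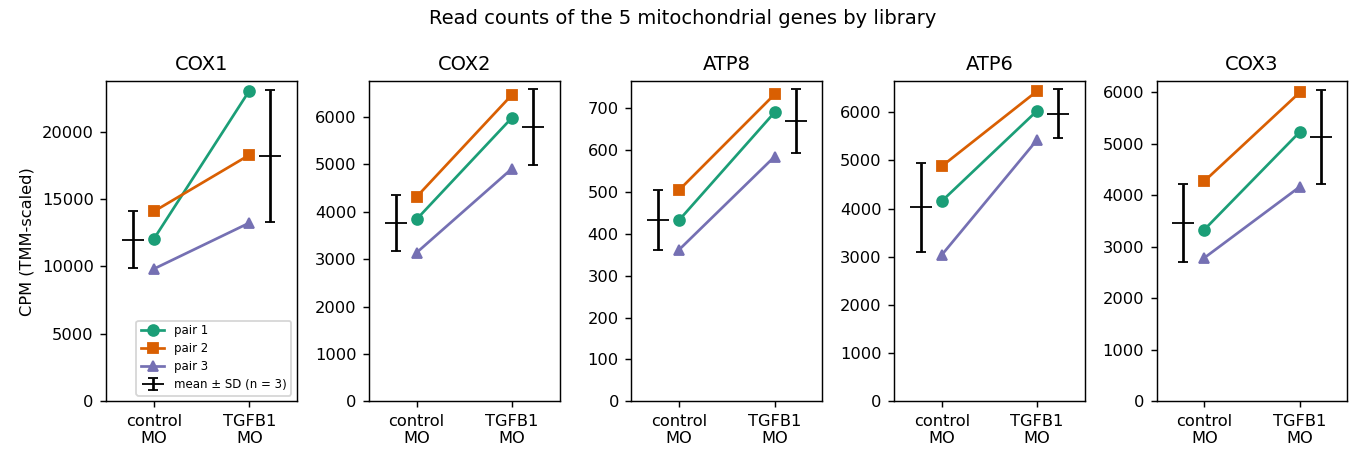
CPM of each gene (linear axes from 0) on the control and the TGFB1 morpholino side, with lines joining the sides of a pair and black bars for the mean ± SD of 3 libraries. Every line goes up, and pair 3 is the lowest line in each panel.

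The spread between embryos was of about the size of the side difference. On the control side the highest library exceeded the lowest by 1.43-fold for COX1, 1.38-fold for COX2, 1.39-fold for ATP8, 1.61-fold for ATP6 and 1.53-fold for COX3. Pair 3 was lowest and pair 2 highest for all 5 genes on the control side. On the TGFB1 morpholino side pair 3 was again lowest for all 5, and pair 2 highest for all but COX1.

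The calls near the threshold depended on the test. With no replicate block, 0 of the 5 genes passed in edgeR (4 at an unadjusted p under 0.05), with an adjusted p = 0.124 for COX2 and 0.0611 for ATP8. That fit called 2.12% of all genes higher, and 1351 of 12736 were higher at an unadjusted p under 0.05. Without pair 2 also 0 passed (1 at an unadjusted p), with 3.53% of all genes called higher. There 1278 of 12764 genes were higher at an unadjusted p under 0.05. Without pair 1, and by DESeq2 or limma-voom with all pairs, 5 passed. Called higher in these fits were 7.42% of 12675, 2.65% of 19217 and 7.73% of 12736 genes tested. DESeq2 was run with no filter on low counts beforehand, so its share, over all rows with a p, has a larger base. Its default independent filter may leave rows of low counts out of the adjustment. The direction was upwards for all 5 genes in each of these fits. The edgeR fits without pair 1 or without pair 2 took the spread almost wholly from other genes. Their calls therefore say little about variation between embryos. The Wald test of DESeq2 likewise takes its p from a normal curve, which makes no allowance for the few embryos.

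**Figure D4:**
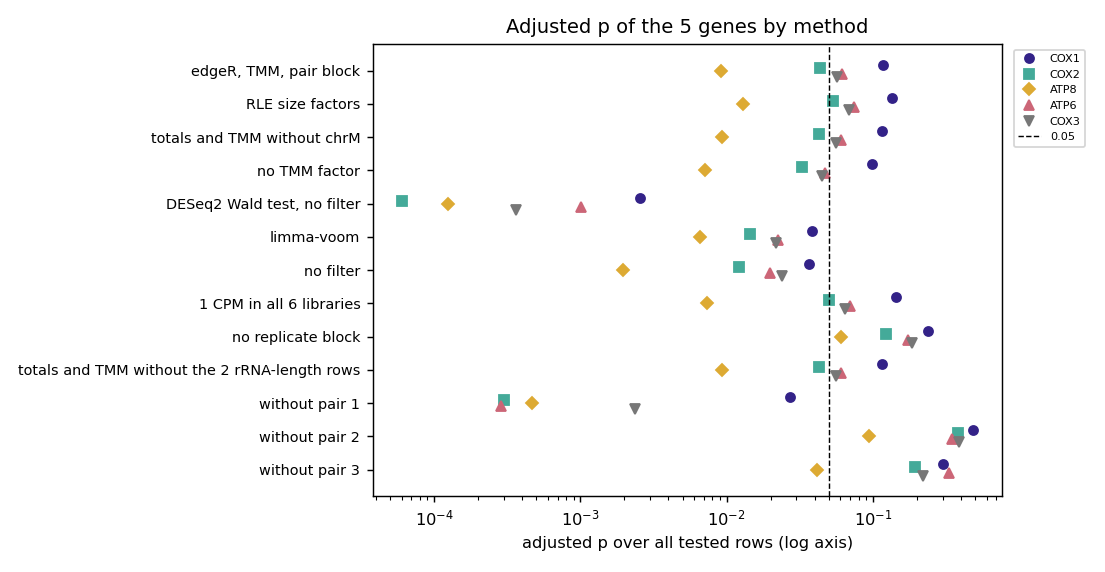
Adjusted p (log axis) for the 5 genes under the edgeR test with the pair block and 12 alternatives, with the dashed line at 0.05. The adjustment covers all tested rows, except in DESeq2, whose default independent filter may leave out rows of low counts. ATP8 lies left of the line in 11 of the 13 fits, and all 5 genes lie right of it with no replicate block and without pair 2.

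As a share of the library, the 5 genes together took 2.38%, 2.81% and 1.93% of all counts in the controls of pairs 1, 2 and 3. They took 4.13%, 3.79% and 2.75% on the TGFB1 morpholino side. The share was higher in 3 of 3 pairs, by 1.74, 1.35 and 1.43-fold, although the lowest value of the TGFB1 morpholino side lay below the highest control. With 3 pairs an exact two-sided sign-flip test cannot go below p = 0.25, and it gave that value.

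Taking the library totals without the mitochondrial chromosome moved the folds up in every pair, most in pair 1. Per 1000 counts outside that chromosome, the 5 genes had 25.0, 29.8 and 20.0 counts in the controls and 46.9, 40.9 and 28.9 on the TGFB1 morpholino side. The fold was then 1.88, 1.37 and 1.45 in pairs 1, 2 and 3. By gene, pair 1 gave 2.08-fold for COX1, 1.70 for COX2, 1.74 for ATP8, 1.58 for ATP6 and 1.71 for COX3. In pairs 2 and 3 the genes lay between 1.32 and 1.75-fold. In the edgeR test, totals and TMM factors without the mitochondrial chromosome left the log2 fold changes at 0.57 to 0.63 and called the same 2 genes, COX2 (adjusted p = 0.0428) and ATP8 (adjusted p = 0.00928), with 7.00% of all genes called higher.

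**Figure D5:**
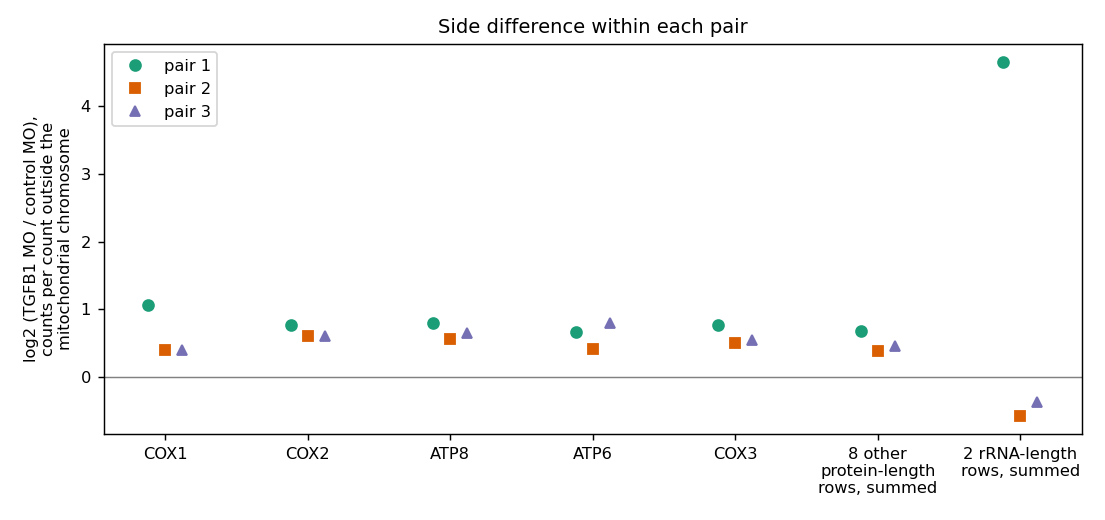
Log2 ratio of the TGFB1 morpholino to the control side in each pair, in counts per count outside the mitochondrial chromosome, for the 5 genes, the 8 other protein-length rows summed and the 2 rRNA-length rows summed. All points of the protein-length rows lie above 0, while the rRNA-length rows lie at 4.65 in pair 1 and below 0 in pairs 2 and 3.

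Of the 8 other mitochondrial rows of protein-coding length, 8 had a log2 fold change above 0, from 0.30 to 0.54 with a median of 0.46. Among all 12736 genes tested, 6411 had one above 0. In TMM-scaled CPM, 6 of the 8 rows were higher in all 3 pairs, as were 26.2% of all genes tested. The rows that start at 10776 and 16184 were lower on the TGFB1 morpholino side in pair 1, at 365 against 386 CPM and 420 against 447 CPM. These small differences depend on the scale: per count outside the mitochondrial chromosome both rows were slightly higher on that side. Of these 8, 0 passed the false discovery rate in edgeR with TMM, the filter and all pairs. In the other fits in which all 5 genes passed, some of the 8 passed too. These were 6 in edgeR without pair 1 (7.42% of genes tested called higher) and 3 with no filter (6.07%). By DESeq2 5 passed (2.65%) and by limma-voom 3 (7.73%). In the first fit 6 of the 8 had an unadjusted p under 0.05, as did 5 of the 5 genes described here (15.0% of all genes tested, counting those that were higher). The 5 genes held 52.7%, 52.9% and 56.7% of the reads of all 13 protein-length rows in the controls, and 56.6%, 54.0% and 58.0% on the TGFB1 morpholino side. The log2 ratio of the 5 genes to the other 8 was higher on the TGFB1 morpholino side by 0.23, 0.063 and 0.074 in pairs 1, 2 and 3, a mean of 0.12 ± 0.092 (SD, n = 3). The exact two-sided sign-flip test gave p = 0.25, the smallest it allows with 3 pairs, so it cannot decide whether the 5 genes differ from the other 8.

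The rRNA-length rows did not follow the 5 genes. Per count outside the mitochondrial chromosome, the summed rRNA-length rows were 25.1-fold higher on the TGFB1 morpholino side in pair 1. In pairs 2 and 3 they were lower there, at 0.673 and 0.781 of the control. In those pairs the 5 genes were 1.37 and 1.45-fold higher. Of the 21 tRNA-length rows, which poly(A) selection captures poorly, 4 passed the filter on low counts, with log2 fold changes of 0.57 to 1.66. Of these 4, 1 was called, the row that starts at 6280 (0.94, SE 0.27). Both ends of the range rest on few reads. The row with 0.57 (SE 0.47) had 1.1 to 3.3 CPM. The row with 1.66 (SE 0.83) had 0 CPM on the TGFB1 morpholino side of pair 3. The minus-strand row of 135 bases was called higher too, with a log2 fold change of 0.68 (SE 0.21, edgeR adjusted p = 0.0427). Of all genes tested, 7.15% were called higher. In pair 2 that minus-strand row was lower on the TGFB1 morpholino side, at 38.8 against 40.4 CPM. The higher values of the 5 genes on the TGFB1 morpholino side were present also in the pairs whose rRNA-length rows were lower on that side. What lies behind either difference was not tested.

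Profiles over the 6 libraries were compared by the mean absolute difference of log2 CPM, each profile centred on its mean. The row most like the sum of the 5 genes was ENSGALG00000040023.3, at 20565752 to 20594690 of chromosome 1, minus strand, with a mean absolute difference of 0.025. It averaged 35.9 ± 6.15 CPM in the controls and 54.2 ± 10.3 CPM on the other side (SD, n = 3, log2 fold change 0.59). The row was picked for its likeness to the 5 genes in these same libraries, so its side difference follows from that choice. Next came ENSGALG00000045721.2, at 2626869 to 2630717 of chromosome 25, plus strand, at 0.041. The files do not pair these IDs with symbols. The nearest mitochondrial row, the protein-length row from 13071 to 14888, was in place 10 of 12731 with 0.078. The other 7 rows of protein-coding length were in places 65, 73, 190, 451, 1088, 2323 and 10933.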

How the data were processed

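The authors deposited unnormalized read counts per gene, with the length of each gene's exons. The submitters' processing notes name cutadapt, HISAT2, featureCounts and galGal6, with no versions, annotation release, strand setting or rule for overlapping genes given in the sources used here. Libraries were strand-specific and poly(A) selected, per the labels' protocols. The members and all lists and tests were chosen with earlier results of these data known.

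Counts of 12736 rows passing filterByExpr were scaled by TMM and tested in R 4.3.3 with edgeR 4.0.16 (quasi-likelihood F test, pair number as a block), with Benjamini-Hochberg adjustment over all rows. Standard errors are the log2 fold change over the root of F. The block follows the protocol, which takes both sides of the same embryo. Which libraries share an embryo is inferred from the numbers in their titles. The deviations of same-numbered libraries from their groups correlated over genes by 0.49, 0.52 and 0.36 in pairs 1, 2 and 3. Shares use unscaled totals, and TPM was computed from the counts and deposited lengths. Logarithms of ratios to COX1 use a prior count of 2. Totals ranged from 5350165 to 12256492 counts. Counting error was 0.218% to 2.26% of the members' counts and covers counting only.

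Named are the 5 genes of the rule and, as most alike, the 2 nearest nuclear IDs and the nearest mitochondrial row. Other mitochondrial rows were sorted by length within 3 bases of RefSeq's genes and left without names. The planned limit of 100 bases would have added the minus-strand row of 135 bases to the protein-length rows, and it was left out. Lists of nuclear subunits and of tissue markers could not be analysed, as 0 of 24356 IDs matched a symbol. Alternatives were other size factors, totals without the mitochondrial chromosome or without the rRNA-length rows, no TMM factor, DESeq2 1.42.0, limma-voom (limma 3.58.1), other filters, no block, and each pair left out. The edgeR step was tested on simulated data.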

Additional observations from a re-analysis of the deposited data

How the results depend on the processing

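The log2 fold changes of the 5 genes stayed above 0 under all 12 alternatives, from 0.40 to 0.69, while the calls moved. Of the 5 genes, 2 passed in edgeR with TMM and the pair block, 1 with size factors as in DESeq2, 4 with no TMM factor, and 5 each with the DESeq2 Wald test, limma-voom and no filter on low counts. In the same order these fits called 7.15%, 6.52%, 6.47%, 2.65%, 7.73% and 6.07% of the genes tested higher. DESeq2 and the fit with no filter tested 19217 genes and the others 12736, so these shares have unlike bases. With no replicate block 0 passed, and 270 genes (2.12%) were called higher and 427 lower over the whole table. Fits without pair 1, pair 2 and pair 3 called 5, 0 and 1 of the 5 genes. They called 7.42%, 3.53% and 6.18% of the genes tested higher. In numbers, these fits called 450 to 940 genes higher and 670 to 1313 lower, with the lowest counts without pair 2. DESeq2 called 509 genes higher. The adjusted p over the alternatives ran from 1.25e-04 to 0.094 for ATP8, 5.99e-05 to 0.381 for COX2, 3.61e-04 to 0.391 for COX3, 2.84e-04 to 0.347 for ATP6 and 0.00257 to 0.486 for COX1. ATP8 passed in 10 of the 12 and COX2 in 8. Fits without a pair estimate the spread from fewer embryos and lean more on other genes. In edgeR without pair 1, without pair 2 and with no filter, the p of the 5 genes followed a normal curve. It was that of the log2 fold change over its SE. A gene's own spread between embryos then has next to no weight, so these calls say little about variation between embryos. The Wald p of DESeq2 also comes from a normal curve. With all pairs, the filter and TMM, the edgeR test too leaned largely on the spread of other genes. The ratios to COX1 changed sign when a pair was left out: COX2 ranged from -0.042 to 0.21, ATP8 from -0.049 to 0.21, ATP6 from -0.19 to 0.22 and COX3 from -0.086 to 0.13. The share of the 5 genes was higher by 0.902 to 1.40 percentage points on the TGFB1 morpholino side and their log2 ratio to the other protein-length rows by 0.068 to 0.15. The level of ATP8 per kilobase was 35.4% of COX1 when shared bases were left out of the lengths, against 34.8%. That alternative changed the lengths only, so it cannot show how reads over 2 genes were counted. The totals without the rRNA-length rows were added after the data were seen and gave 2 calls, with 7.00% of the genes tested called higher. The cause of these changes was not tested.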
